A study of Mus musculus with 3 samples.

Results

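The serine-threonine protein phosphatase subunit genes are the 76 gene symbols in the deposited count files that name a catalytic (c) or regulatory (r) subunit of PP1 to PP6, with calcineurin (PP3) among them. They were taken by their symbol alone, from 32531 genes with a row. Of the 76 symbols, 74 stand for subunit genes and the other 2, Ppp1r3fos and Ppp2r2cos, for transcripts read from the strand opposite a subunit gene. One subunit gene appears under an older symbol, Ppp2r4, which the annotation now calls Ptpa.

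The counts come from 3 libraries of RNA bound to tagged ribosomes in the dentate gyrus of adult, untreated C57BL/6J mice of the line Penk-TRAP NIDA186. Translating ribosome affinity purification (TRAP) pulls down ribosomes by their tagged protein Rpl10a, which carries EGFP and is made here from the Penk-EGFP/Rpl10a transgene. The cells sampled are thus meant to be those in which the proenkephalin regulatory DNA of this 1 line is active. How much RNA of other cells was carried along was not tested. All 3 libraries are immunopurified samples of 1 group, replicates 1 to 3, so the comparisons are between genes within each library, and none is with the tissue as a whole. The labels do not tell if a replicate is 1 animal or a pool, or if animals differ between replicates, so p-values measure only the spread between these samples, which may be technical.

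Protein phosphatases of this family remove phosphate from serine and threonine side chains. A small set of catalytic subunits does the chemistry, and a large set of regulatory subunits decides where it is done: PP1 pairs a catalytic subunit with 1 of many targeting or inhibitory proteins, PP2A joins a catalytic subunit, a scaffold and an exchangeable B subunit, and calcineurin joins a catalytic A subunit with the calcium-binding B subunit and is switched on by calcium and calmodulin. In hippocampal neurons calcineurin and PP1 are known for the dephosphorylation that accompanies long-term depression, and calcineurin also frees NFAT transcription factors to enter the nucleus.

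Gene totals were 5348761, 19195559 and 11059982 counts in replicates 1 to 3, and the subunit genes took 0.600, 1.13 and 0.910% of them. Replicate 1 is the shallowest library and stands apart: 21 of the 76 symbols (27.6%) were at 0 there, against 11 (14.5%) in replicate 2 and 12 (15.8%) in replicate 3, while 63.4, 49.0 and 56% of all genes were at 0. Penk, the gene whose regulatory DNA drives the tag, had 58, 1511 and 142 counts. Granule cell markers summed over 8 genes to 1617, 1927 and 1023 CPM (TMM-scaled counts relative to library size), but rested in replicate 1 almost wholly on Prox1, Rfx3 and Stxbp6, since Calb1 had 2 counts there, Tdo2 1 and C1ql3 0. Pan-neuronal markers summed over 6 genes to 7880, 13950 and 9819 CPM, of which Snap25 alone gave 5316, 10871 and 5338. Astrocyte markers summed over 6 genes to 3025, 1341 and 3114 CPM, of which Slc1a2 alone gave 2874, 1228 and 2796, and Gja1 was at 0 in replicate 1. Summed levels were 877, 734 and 1204 CPM for 6 oligodendrocyte genes, 498, 319 and 442 CPM for 7 GABAergic genes, 410, 930 and 312 CPM for 5 endothelial and mural genes, and 34.4, 11.4 and 15.9 CPM for 6 striatal genes, of which Rxrg was at 0 throughout. Microglial markers summed to 3.30, 6.59 and 20.9 CPM over 5 genes, of which C1qa was at 0 throughout. The part of these other cell types in the results below was not tested. In such bulk samples, fewer cells of a type and less RNA per cell cannot be told apart.

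The catalytic genes of calcineurin and of PP1 are close relatives, so the coding stretches of 60 bases in which they are most alike are shown first, to let a reader see what separates their reads. The sequences come from GENCODE vM21 transcripts on GRCm38, 5′ to 3′ on the coding strand. Capitals mark bases that differ from the first gene of each enzyme.
Ppp3ca: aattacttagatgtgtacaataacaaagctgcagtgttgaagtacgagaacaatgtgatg
Ppp3cb: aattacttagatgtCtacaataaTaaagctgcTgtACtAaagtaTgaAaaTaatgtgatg
Ppp3cc: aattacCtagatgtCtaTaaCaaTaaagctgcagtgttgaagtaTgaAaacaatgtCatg
Ppp1ca: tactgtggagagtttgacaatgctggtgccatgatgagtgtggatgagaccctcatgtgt
Ppp1cb: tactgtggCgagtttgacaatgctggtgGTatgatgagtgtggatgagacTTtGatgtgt
Ppp1cc: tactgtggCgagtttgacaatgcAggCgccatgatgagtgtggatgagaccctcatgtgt

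Even in these stretches Ppp3cb and Ppp3cc differed from Ppp3ca at 9 and 8 of 60 bases, and Ppp1cb and Ppp1cc from Ppp1ca at 6 and 3. Over the whole coding sequence, identity was 73.6% between Ppp3ca and Ppp3cb, 71.9% between Ppp3ca and Ppp3cc, 74.9% between Ppp1ca and Ppp1cb, and 77.4% between Ppp1ca and Ppp1cc. No run of 50 bases in the transcripts of Ppp3ca or Ppp3cb occurs in another gene's transcripts (0% each). Of the 50-base runs of Ppp1cc, however, 40% occur in near-identical copies (Ppp1ccb, Gm14122 and Gm9231), and of those of Ppp2ca 41% occur elsewhere, among others in a gene annotated on the opposite strand, 9430098F02Rik. The counting mode and strand setting are not given in the sources used here, so the levels of Ppp1cc and Ppp2ca are uncertain.

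Calcineurin led the catalytic genes. Ppp3ca, the alpha form of the calcium-activated catalytic subunit (chr3:136670124-136937727, plus strand, GRCm38), had 7290, 68931 and 22719 counts in replicates 1 to 3, which made a level of 172, 302 and 195 CPM per kb of exon, a mean of 223 ± 69.1 (SD, n = 3). It was the highest catalytic gene in all 3 libraries and alone held 65.7, 63.1 and 67.6% of the summed catalytic level per kb (65.4% ± 2.24, SD, n = 3). Ppp3cb, the beta form, had 60, 1449 and 365 counts, or 1.61, 7.18 and 3.55 CPM per kb. Ppp3cc, the gamma form known best from testis, had 1, 801 and 335 counts, or 0.0790, 11.7 and 9.6 CPM per kb.

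Within calcineurin A, the share of Ppp3ca was therefore 99, 94.1 and 93.7% per kb, 95.6% ± 2.98 (SD, n = 3). The ratio of Ppp3ca to Ppp3cb per kb was 107 in replicate 1 (95% exact counting interval 83.2 to 141), 42.0 in replicate 2 (39.9 to 44.3) and 54.9 in replicate 3 (49.5 to 61.1). Against Ppp3cc the ratio was 25.7 in replicate 2 (24.0 to 27.6) and 20.3 in replicate 3 (18.2 to 22.7). In replicate 1 it rested on a single Ppp3cc count and was 2180, with an interval of 391 to 86130. Ppp3ca was the higher gene of both pairs in 3 of 3 libraries, for which the exact two-sided sign-flip test gives 0.25, the smallest p that 3 libraries allow. The order of the minor forms per kb was not shared. The ratio of Ppp3cb to Ppp3cc was 20.3 in replicate 1 (3.51 to 816), 0.613 in replicate 2 (0.562 to 0.669) and 0.369 in replicate 3 (0.317 to 0.430), with an exact sign-flip p of 1. This order rests on the exon length, 8.809 kb for Ppp3cb and 2.985 kb for Ppp3cc. Not divided by length, the counts of Ppp3cb were the higher ones in 3 of 3 libraries. The counting intervals, like the limits given for counts of 0, take in no error but that of counting. Reads copied by PCR are not separate molecules.

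The gene of the calcineurin B subunit was high as well. Ppp3r1, which encodes the calcium-binding regulatory subunit (chr11:17159263-17200375, plus strand), had 2445, 39545 and 7618 counts, or 179, 535 and 202 CPM per kb, a mean of 305 ± 199 (SD, n = 3). It was the highest of all 76 symbols by mean level per kb, and replicate 2 stood above the other two. Summed per kb, calcineurin B over calcineurin A was 1.03, 1.67 and 0.972, a mean of 1.22 ± 0.388 (SD, n = 3). The second B gene, Ppp3r2, known as a testis form, had 0, 2 and 7 counts. Part of the Ppp3r1 exon sequence is uncertain, since 462 bases overlap exons of Wdr92 on the same strand and 13% of its 50-base runs occur there.

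**Figure D1:**
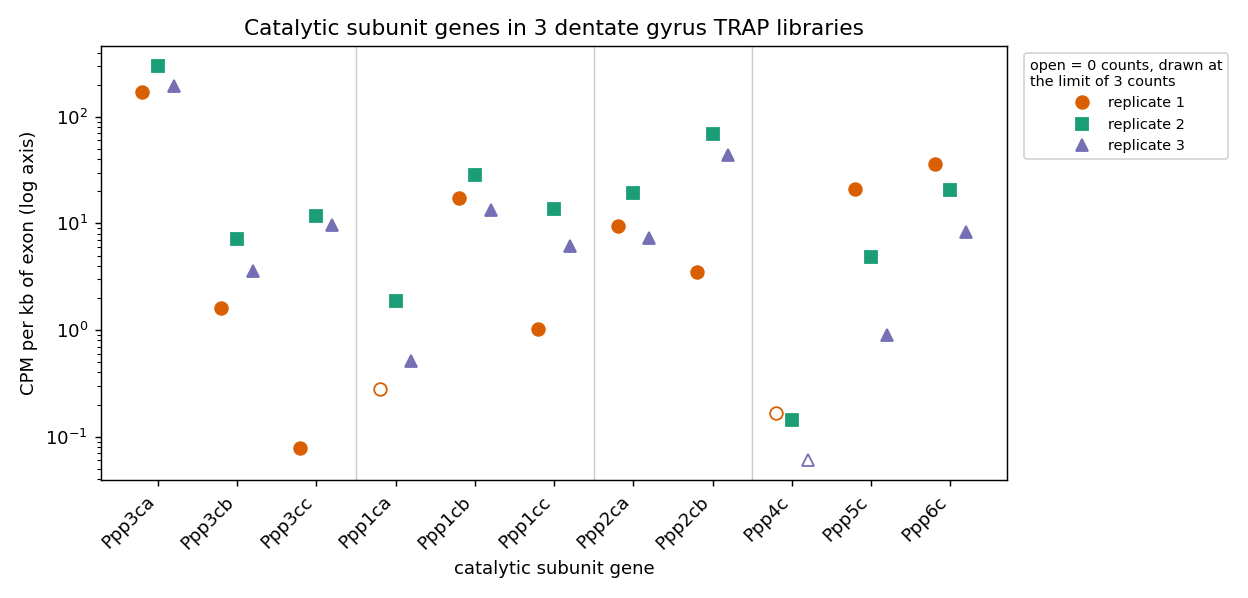
Level of the 11 catalytic subunit genes in CPM per kb of exon (log axis), 1 point per library, with open symbols for 0 counts drawn at the limit of 3 counts. Ppp3ca sits at 172 to 302 CPM per kb in all libraries, while Ppp3cc, Ppp1ca, Ppp2cb and Ppp5c spread widely between libraries.

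Among PP1 catalytic genes the beta form was highest. Ppp1cb (chr5:32458843-32517433, plus strand) had 801, 7143 and 1707 counts, or 17.3, 28.6 and 13.4 CPM per kb, and made up 94.4, 64.6 and 67.0% of PP1 catalytic counts per kb. Ppp1cc, the gamma form, had 15, 1081 and 244 counts, or 1.03, 13.8 and 6.10 CPM per kb. Ppp1ca, the alpha form, had 0, 107 and 15 counts, or 0, 1.85 and 0.509 CPM per kb. The order beta, gamma, alpha was thus the same in every library, with gamma well below beta in replicate 1.

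Per kb, Ppp1cb exceeded Ppp1ca 61.7-fold in replicate 1 with Ppp1ca, at 0, set to the limit of 3 counts. The lower end of the 95% exact counting interval there was 50.03. The ratio was 15.4 in replicate 2 (95% exact counting interval 12.7 to 18.8) and 26.3 in replicate 3 (15.9 to 47.1). With the same limit Ppp1cc exceeded Ppp1ca 3.68-fold in replicate 1, where the lower end of the exact interval was 2.64. That ratio was 7.43 in replicate 2 (6.09 to 9.16) and 12 in replicate 3 (7.12 to 21.7). Both pairs kept their direction in 3 of 3 libraries, with an exact sign-flip p of 0.25 each. Exons of Ppp1ca overlap those of Rad9a and AC109138.6 on the other strand over 416 bases, and 1908 bases of Ppp1cb overlap Gm43312 on the same strand, so counts at these stretches may have been shared or set aside.

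PP2A catalytic genes did not keep 1 order. Ppp2cb, the beta form, had 22, 2308 and 754 counts, or 3.53, 68.6 and 43.9 CPM per kb. Ppp2ca, the alpha form, had 300, 3310 and 643 counts, or 9.44, 19.3 and 7.35 CPM per kb. Ppp2ca made up 72.8% of the pair per kb in replicate 1, and 22.0 and 14.3% in replicates 2 and 3. The ratio of Ppp2ca to Ppp2cb was 2.67 (95% exact counting interval 1.73 to 4.33), 0.281 (0.267 to 0.297) and 0.167 (0.150 to 0.186) in replicates 1 to 3, and the exact sign-flip p was 0.5. Counting error does not span this change of side, and it rests on replicate 1, which is 1 library. The exon length matters as well, since the annotation gives Ppp2ca 7.49 kb and Ppp2cb 1.47 kb; not divided by length, the counts of Ppp2ca were the higher ones in replicates 1 and 2 and the lower ones in replicate 3.

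The single-gene enzymes PP4, PP5 and PP6 also varied. Ppp6c had 676, 2073 and 427 counts, or 35.9, 20.4 and 8.22 CPM per kb, and Ppp5c, whose protein binds the chaperone Hsp90, had 280, 350 and 33 counts, or 21.0, 4.87 and 0.9 CPM per kb. Ppp4c had 0, 14 and 0 counts, and was the lowest catalytic gene by mean level. Both Ppp6c and Ppp5c were highest in replicate 1 and lowest in replicate 3. By enzyme, calcineurin held 66.3, 67.0 and 72.1% of the catalytic level per kb, PP2A 4.95, 18.4 and 17.8%, PP1 7, 9.25 and 6.93%, PP6 13.7, 4.26 and 2.85%, and PP5 8.03, 1.02 and 0.312%. Calcineurin came first in every library, and the order of the other enzymes in replicate 1 differed from that in replicates 2 and 3. The exon length matters for these shares. Mean levels of Ppp1cb and Ppp6c were 19.8 and 21.5 CPM per kb of merged exon, but 36.2 and 23.2 with the longest transcript as the length.

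**Figure D2:**
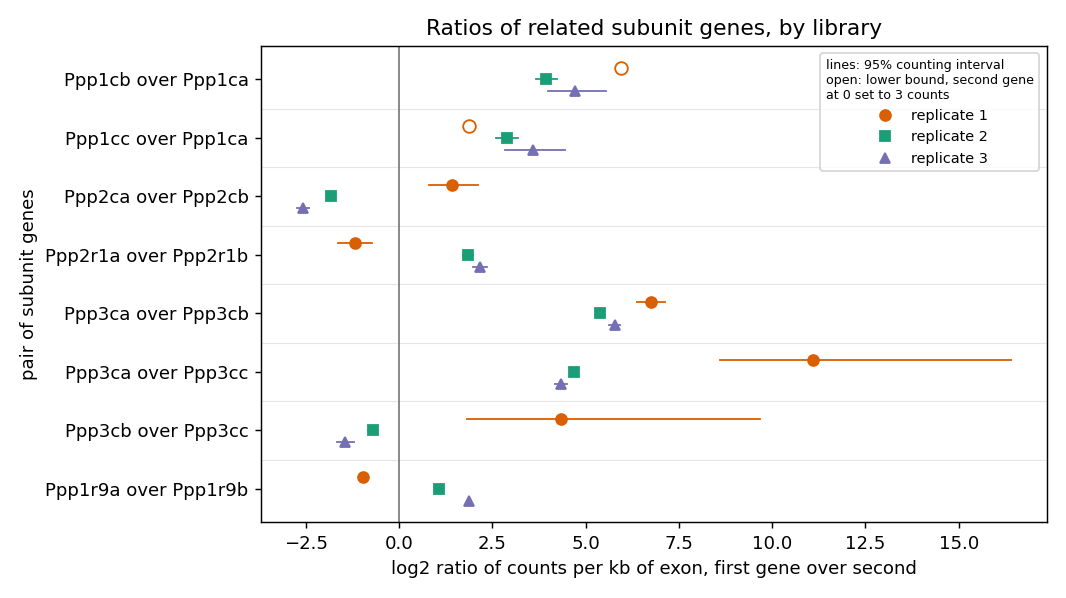
Log2 ratio of counts per kb of exon for 8 pairs of related subunit genes, first gene over second, 1 point per library with its 95% exact counting interval. Open symbols, labelled as lower bounds, stand where the second gene was at 0 and was set to 3 counts. Their exact intervals are not drawn and reach lower. Ppp3ca over Ppp3cb lies right of 0 in all libraries (ratios of 42.0 to 107), whereas Ppp2ca over Ppp2cb, Ppp2r1a over Ppp2r1b, Ppp3cb over Ppp3cc and Ppp1r9a over Ppp1r9b have replicate 1 on the other side from replicates 2 and 3.

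To place all members on 1 scale, each gene's level per kb was compared with the median gene of its library (5.55, 6.38 and 6.18 CPM per kb in replicates 1 to 3), asking for a distance of more than 1 on the log2 scale. The fit covered 8157 genes, among them 46 of the 76 symbols; the other 30 did not pass the filter on low counts, and 8 of these, all subunit genes, were at 0 in every library. Under edgeR's quasi-likelihood test with Benjamini-Hochberg adjustment over all 8157 genes, 8 of the 46 (17.4%) lay above the median gene, against 13.7% of all tested genes. Below it lay 0 of 46, against 2.94% of all tested genes, and 0 also at an unadjusted p under 0.05 and with limma. As a list the 46 tested members sat close to the background in calls and in median level. That median was 0.29, 0.72 and 0.22 on the log2 scale relative to the median gene, where all tested genes have 0. Below the median gene in 3 of 3 libraries lay 13% of the 46, against 29.7% of all tested genes. Members at 0 in every library were 8 of 76, against 8317 of 23898 genes with an exon length. Over all 76 symbols the median level was 1.25, 4.41 and 3.38 CPM per kb, and over all 23898 genes with an exon length it was 0, 0.365 and 0.110 CPM per kb.

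Of the calcineurin genes, Ppp3r1 and Ppp3ca had the highest fitted levels of all members: on the log2 scale Ppp3r1 lay 5.63 over the median gene (adjusted p = 3.43e-18) and Ppp3ca 5.19 (adjusted p = 1.44e-15), by edgeR's quasi-likelihood test. Next came Ppp2r2c at 4.42 (adjusted p = 2.18e-12), Ppp1r9a at 4.27 (adjusted p = 6.27e-11) and Ppp1r9b at 3.76 (adjusted p = 1.71e-08). These 5 were above the median gene in 3 of 3 libraries. They were also called by limma, with larger adjusted p-values, from 1.06e-05 for Ppp3r1 to 0.00145 for Ppp1r9b. The other 3 calls were Ppp2cb at 2.62 (adjusted p = 0.0166), Ppp1r16b at 2.59 (adjusted p = 0.00219) and Ppp2r5c at 2.55 (adjusted p = 0.00401). With limma these 3 were not called, at 1.88, 2.24 and 2.03 (adjusted p = 0.331, 0.0905 and 0.187). Ppp2cb was at -0.61 in replicate 1, and it was no longer called when replicate 2 was left out (1.88, adjusted p = 0.575) or replicate 3 (2.66, adjusted p = 0.0800), and likewise with the longest transcript as the length (2.17, adjusted p = 0.114) or with no division by length (0.77, adjusted p = 0.919). Ppp2r5c and Ppp1r16b were above the median gene in 3 of 3 libraries, but Ppp2r5c lost its call without replicate 1 (1.75, adjusted p = 0.121).

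PP2A regulatory genes of the B55 family were led by the gamma form. Ppp2r2c, known as a brain-enriched B55 subunit (chr5:36868513-36955078, plus strand), had 1565, 14256 and 8863 counts, or 82.9, 140 and 170 CPM per kb, a mean of 131 ± 44.4 (SD, n = 3). Its share of the B55 level per kb was 63.2, 77.7 and 88.1%. Ppp2r2a, the widely expressed alpha form, had 30.4, 20.3 and 10.4 CPM per kb, and Ppp2r2b, the beta form, had 17.9, 16.4 and 9.28 CPM per kb. Ppp2r2c was first and Ppp2r2a second in every library. Ppp2r2d, the delta form, had 0, 485 and 225 counts.

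Ppp2r2cos, annotated on the minus strand inside the Ppp2r2c gene (chr5:36873595-36876879) with 0 bases of exon overlap, went the other way between libraries. It had 437, 30 and 16 counts, or 69.1, 0.878 and 0.918 CPM per kb, and its range of 6.14 on the log2 CPM scale was the largest among the tested members. Only replicate 1 was high, the library in which 50.7% of listed reads fell on no gene feature, against 35.4 and 40.5% in replicates 2 and 3; the part of that share in the value was not tested. The other opposite-strand transcript, Ppp1r3fos (GENCODE name Flicr), had 0, 41 and 0 counts.

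In the B56 family, whose members steer PP2A to docking motifs in its substrates, Ppp2r5c (chr12:110447120-110583062, plus strand) had 2507, 2127 and 1792 counts, or 71.3, 11.2 and 18.5 CPM per kb. It made up 85.0, 28.9 and 42.1% of the family per kb, so that replicate 1 alone set it far apart from its relatives. Ppp2r5d had 8.66, 9.77 and 6.26 CPM per kb, among the steadiest of the members, and Ppp2r5e had 1.24, 11.3 and 11.1 CPM per kb. Ppp2r5a had 0.908, 4.39 and 7.01 CPM per kb, and Ppp2r5b was lowest at 1.75, 2.11 and 1.09. In replicate 2 Ppp2r5e, at 29.2% of the family, was level with Ppp2r5c at 28.9%.

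The 2 scaffold genes exchanged places as the catalytic genes did. Ppp2r1a, the alpha scaffold, had 52, 1348 and 825 counts, or 3.59, 17.3 and 20.7 CPM per kb, and Ppp2r1b, the beta scaffold, had 221, 713 and 348 counts, or 8.08, 4.83 and 4.62 CPM per kb. The ratio of Ppp2r1a to Ppp2r1b was 0.445 (95% exact counting interval 0.322 to 0.604), 3.57 (3.26 to 3.92) and 4.48 (3.95 to 5.09) in replicates 1 to 3, with an exact sign-flip p of 0.5. Replicate 1 was again the library on the other side. Of the Ppp2r1b exons, 1429 bases overlap Sik2 on the opposite strand.

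Of the B72/PR70 family, Ppp2r3a had 3.46, 12.2 and 12.8 CPM per kb, Ppp2r3d had 21.9, 4.05 and 2.30, and Ppp2r3c, the lowest, had 1, 211 and 64 counts. Ppp2r4, the PP2A activator Ptpa, had 1, 565 and 310 counts. Neither the families nor the activator kept equal proportions to the catalytic genes: the 12 B subunit genes summed to 240, 237 and 253 CPM per kb, a mean of 244 ± 8.74 (SD, n = 3), which was 18.5, 2.69 and 4.94 times the summed catalytic level. The scaffold sum was 0.9, 0.251 and 0.494 times the catalytic sum. The B subunit sum was thus nearly equal in the 3 libraries while its makeup and the catalytic sum (13, 87.9 and 51.3 CPM per kb) were not.

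**Figure D3:**
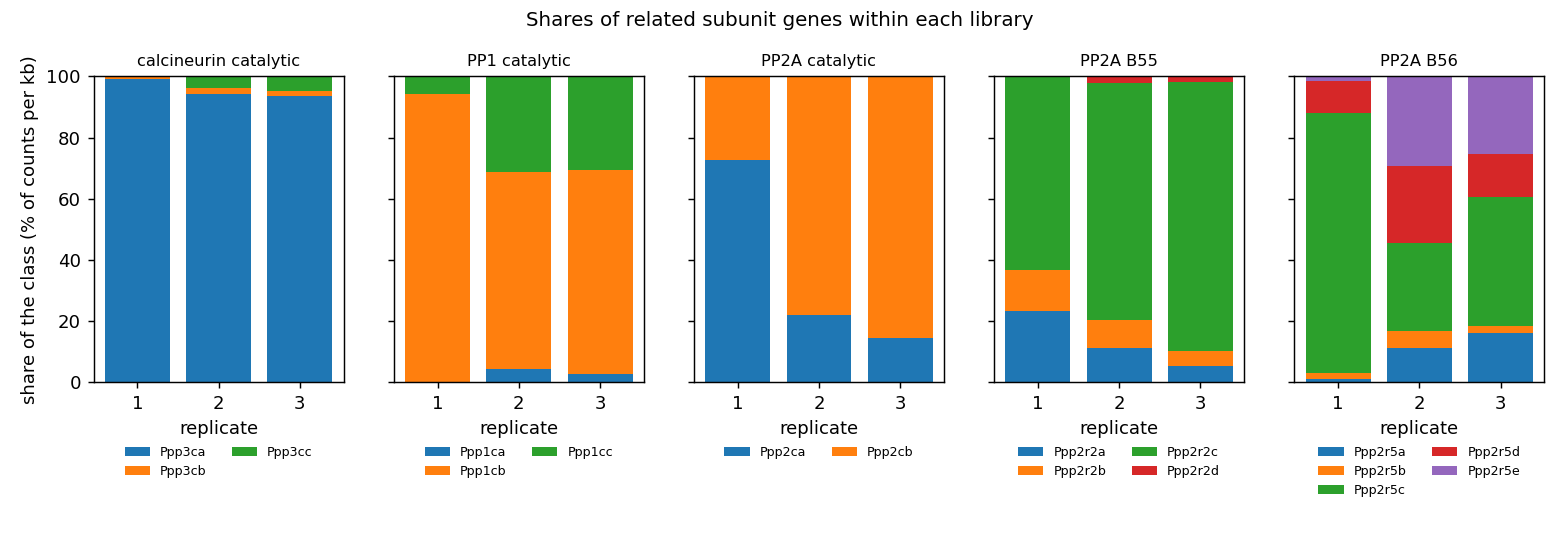
Share of each gene in the summed level per kb of exon of its class, as stacked bars for replicates 1 to 3, for 5 classes of subunit genes. Ppp3ca fills 93.7 to 99% of calcineurin A in every library, and in the PP2A catalytic class Ppp2ca takes 72.8% in replicate 1 but 22.0 and 14.3% in replicates 2 and 3.

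The PP1 targeting genes with the highest level were those of the synapse and the actin cytoskeleton. Ppp1r9a, which encodes neurabin (chr6:4902917-5165661, plus strand), had 4536, 27856 and 33251 counts, or 73.6, 83.7 and 196 CPM per kb, a mean of 118 ± 67.8 (SD, n = 3). Ppp1r9b, which encodes spinophilin, the relative of neurabin that brings PP1 to dendritic spines (chr11:94991035-95006899, plus strand), had 3088, 4602 and 3187 counts, or 143, 39.5 and 53.6 CPM per kb, a mean of 78.8 ± 56.2. Both were far above the third gene of the class, Ppp1r18, which encodes the actin-binding phostensin and had 0, 29 and 28 counts. Between the 2 relatives the order per kb was not shared. The ratio of Ppp1r9a to Ppp1r9b per kb was 0.514 (95% exact counting interval 0.491 to 0.538), 2.12 (2.05 to 2.19) and 3.65 (3.52 to 3.79) in replicates 1 to 3, with an exact sign-flip p of 0.5. The side of replicate 1 rests on the exon length, 14.531 kb for Ppp1r9a and 5.083 kb for Ppp1r9b. Not divided by length, the counts of Ppp1r9a were the higher ones in all 3 libraries.

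Among the myosin-targeting relatives, Ppp1r16b, which encodes the membrane-bound TIMAP (chr2:158665398-158766334, plus strand), was highest, with 2534, 3760 and 1895 counts, or 67.5, 18.6 and 18.3 CPM per kb. Ppp1r12a, which encodes a myosin phosphatase target subunit, had 8.79, 14.5 and 18.3 CPM per kb, and Ppp1r12c had 13.6, 5.83 and 4.23. In replicate 3 Ppp1r16b and Ppp1r12a were level, and only replicate 1 set Ppp1r16b far above. The steadiest gene of the class was Ppp1r12b at 4.72, 4.98 and 6.64 CPM per kb, and the lowest was Ppp1r16a with 0, 36 and 11 counts.

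The inhibitor genes of PP1 had a median level over the 10 genes of 1.45 CPM per kb (mean of the libraries). Ppp1r1a, inhibitor-1, which blocks PP1 once protein kinase A has phosphorylated it, had 54, 987 and 69 counts, or 9.75, 33.0 and 4.52 CPM per kb. Ppp1r2, inhibitor-2, had 474, 1470 and 332 counts, or 25.2, 14.5 and 6.40 CPM per kb. Ppp1r14b had 186, 0 and 46 counts, and Ppp1r11, inhibitor-3, had 10, 565 and 14. The highest inhibitor gene was a different one in each library, and the zero of Ppp1r14b fell in the deepest library. Of the 50-base runs of Ppp1r14b 21.7% occur in Gm7332, and of those of Ppp1r2 9.11% in its annotated pseudogenes, so both levels are uncertain. Ppp1r1b, which encodes DARPP-32 of striatal projection neurons and was singled out after its values were seen, had 1, 26 and 26 counts, or 0.0805, 0.388 and 0.760 CPM per kb. Ppp1r1c, Ppp1r14d and Ppp1r17 were at 0 in all libraries.

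The glycogen-targeting genes, which bring PP1 to glycogen, had a median level over the 7 genes of 0.333 CPM per kb (mean of the libraries). Ppp1r3e had 5, 248 and 226 counts, Ppp1r3f had 123, 131 and 306 and Ppp1r3c had 12, 106 and 126, with mean levels of 4.17, 3.94 and 2.23 CPM per kb, under the median gene in replicates 1 and 2 for Ppp1r3e and in all 3 for Ppp1r3c. For Ppp1r3f 50.7% of 50-base runs occur in other annotated genes, Gm36995 among them, so its level is uncertain. Ppp1r3a, the skeletal muscle form, and Ppp1r3g were at 0 in all libraries. A count of 0 allows up to 3 counts, or 0.707, 0.131 and 0.257 CPM in replicates 1 to 3.

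Of the 15 genes with nuclear and other targeting roles 5 were tested, and none of them is among the 8 called. Ppp1r13b, which encodes the p53-binding ASPP1, was highest at 37.1, 17.5 and 13.3 CPM per kb, followed by Ppp1r10, the nuclear PNUTS, at 5.45, 6.15 and 11.3. Ppp1r15b, which encodes the constitutive partner of PP1 in eIF2-alpha dephosphorylation, had 4.43, 8.32 and 4.11 CPM per kb, while its stress-induced counterpart Ppp1r15a, singled out after its values were seen, had 5, 0 and 0 counts. Ppp1r27, Ppp1r32 and Ppp1r42 were at 0 in all libraries.

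The regulatory genes of PP4 and PP6, 3 of each and all tested, bind their catalytic subunits and direct them to substrates. Ppp4r4 had 4.84, 22.0 and 28.1 CPM per kb, Ppp4r2 had 1.07, 4.43 and 2.68 and Ppp4r1 had 2.25, 2.46 and 0.314. The PP4 partner genes Ppp4r3a and Ppp4r3b stand in the files under the older symbols Smek1 and Smek2, which the symbol rule did not take; found after the values were seen, they had 53, 1100 and 147 counts and 81, 1201 and 723. Ppp6r1 had 10.4, 3.73 and 7.81 CPM per kb, Ppp6r3 had 1.06, 6.60 and 8.95, and Ppp6r2 had 1.19, 3.45 and 2.0. None of these regulators is among the 8 genes called above.

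**Figure D4:**
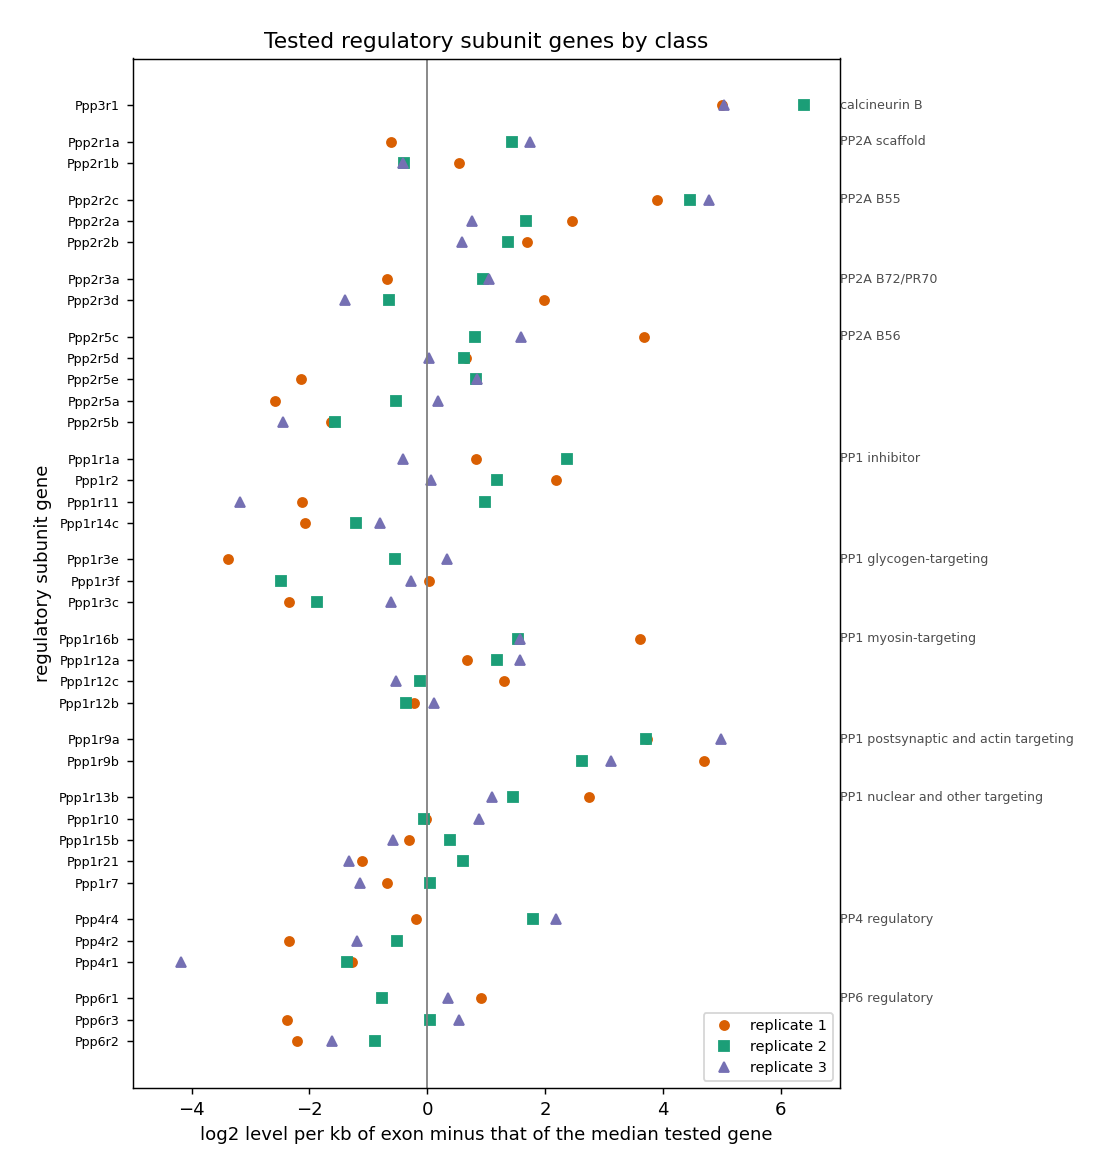
Level of 37 tested regulatory subunit genes by class, as log2 level per kb of exon minus that of the median tested gene, 1 point per library. Ppp3r1, Ppp2r2c, Ppp1r9a and Ppp1r9b lie at 2.63 or higher in all libraries, while most other genes lie on both sides of 0.

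Counts of all 46 tested members differed between the 3 libraries beyond sampling noise (Poisson chi-square, Benjamini-Hochberg adjusted p under 0.05), against 97.5% of all tested genes, a share that leaves no room to compare their spread. The median absolute log2 difference between libraries was 1.40 for the 46 and 1.27 for all tested genes between replicates 1 and 2, 1.27 and 1.31 between 1 and 3, and 0.77 and 0.79 between 2 and 3. Of the 46, 16 (34.8%) lay above the median gene in 3 of 3 libraries, 6 (13%) below it in 3 of 3 and 24 (52.2%) on both sides, against 31.0, 29.7 and 39.3% of all tested genes. The members that ranged most were Ppp2r2cos (6.14 on the log2 CPM scale), Ppp5c (4.47), Ppp2cb (4.24), Ppp1r11 (4.2) and Ppp1r3e (3.87). Replicate 1 was the lowest library for 21 tested members and replicate 3 for 20, and replicate 2 the highest for 18. These counts were not made over all tested genes, so they are not read as a trait of the members. Spearman's rho over all 76 symbols was 0.747 between replicates 1 and 2, 0.778 between 1 and 3 and 0.871 between 2 and 3. Over the 46 tested members it was lower, at 0.531, 0.477 and 0.753, against 0.595, 0.549 and 0.778 over all tested genes, a description of genes that share a library, not of independent samples.

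Part of the loss from the filter fell through replicate 1. There, 5 members were at 0 with at least 10 counts in both other libraries: Ppp1ca, Ppp1r16a, Ppp1r18, Ppp2r2d and Ppp1r8, which encodes the nuclear inhibitor NIPP1 and had 0, 867 and 15 counts. In replicate 2 this held for 1 member (Ppp1r14b), and in replicate 3 for 0. The share of all genes with this pattern was not computed, so these counts are not a result about the members. Leaving out replicate 1 raised the number of all tested genes as well, from 8157 to 10763. Without replicate 1, 57 members were tested and 10 were called above (background 16.6%), of which 7 were among the 8 called with all libraries, and 3 were called below (background 4.78%): Ppp1r16a, Ppp1r18 and Ppp1r1b.

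Known regulators and partners of these enzymes were read from a list of 63 symbols that the symbol rule does not take. Of these, 61 had a row and 49 were tested. Without a row under the listed symbol were Cip2a and Ptpa, which is the member Ppp2r4. Above the median gene lay 4 (8.16%), against 13.7% of all tested genes, and below it 1 (2.04%), against 2.94%. Anp32a, an inhibitor of PP2A, had 109, 72 and 76.4 CPM per kb, or, in log2, 3.85 over the median gene (adjusted p = 3.88e-09, edgeR's quasi-likelihood test). Ppm1e, a metal-dependent phosphatase of PAK kinases, followed at 3.71, then Shoc2, a partner of PP1 in RAF activation, at 3.37, and Akap5, the anchoring protein that holds calcineurin and protein kinase A at the synapse, at 2.23 (adjusted p = 0.0205). Akap5 had 25.8, 34.3 and 25.0 CPM per kb, close to one level in all libraries. Bod1, an inhibitor of PP2A with B56, had 0, 1515 and 726 counts and was not tested. The lowest genes of the list were Ppm1n at 0 in all libraries and Csrnp1 at 0, 2 and 0 counts. The gene called below was Nfatc2, a target of calcineurin named after its values were seen, at -3.87 (adjusted p = 0.00726) with 7, 172 and 48 counts. Without replicate 1, 54 of the list were tested, of which 15 lay above (background 16.6%) and 0 below (background 4.78%).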

How the data were processed

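Ribosome-bound RNA from 3 immunopurified dentate gyrus libraries of 1 group was analysed. The deposited files hold whole-number read counts per gene symbol, not normalised, with replicates not pooled; per the submitters' processing notes, STAR 2.0.0e, HTSeq and the mm10 genome were used. The annotation, counting mode and strand setting are not given in the sources used here. Summary rows of the counter, which name no gene, were left out; reads on genes made up 16.3, 38.2 and 21.1% of all listed in replicates 1 to 3.

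Members, classes and the list of related regulators were chosen with earlier results of these data known. From the counts, TMM-scaled CPM per kb of merged exon (GENCODE vM21, GRCm38; the authors' annotation may differ) was computed with edgeR 4.0.16 in R 4.3.3. filterByExpr kept 8510 genes, of which 8157 (95.9%) had an exon length. All 76 symbols matched, 2 of them through an older symbol. edgeR's quasi-likelihood fit with an intercept only gave each gene's distance from the library's median gene, tested against a log2 threshold of 1 at an adjusted p of 0.05. edgeR's own test functions need a second coefficient, so the statistic was formed from its deviance and posterior dispersion and tested on simulated data. Alternatives were limma 3.58.1, DESeq2 1.42.0 size factors, no filter, other lengths and thresholds, thinning and each replicate left out. Log2 values per library use a prior count of 2.

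Pairs of genes were also fitted with the second gene as offset. On simulated data with a widely varying second gene, this test also called genes that did not differ, so its p-values are too small and no call is drawn from it; ratios, counting intervals and exact sign-flip tests stand in its place.

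Named were all catalytic genes, in each other class the top 3 members by level per kb and the bottom 1, every called member, the 5 tested members of largest range, and the 5 highest and 2 lowest related regulators; members at 0 in 1 or all libraries, Ppp2r5a, Ppp1r12b, Penk and genes so marked in the text were added after their values were seen. Coding sequences were aligned with mafft 7.526 (those of PP2A catalytic genes are not reported here), and figures drawn with matplotlib 3.10.9.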

Additional observations from a re-analysis of the deposited data

How the results depend on the processing

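The count of 8 members above the median gene was 8 with DESeq2 size factors (13.7% of all tested genes) and with thinning (12.7%). It was also 8 undivided by length (17%) and with longest-transcript lengths (13.6%), where 7 of the 8 were shared and Ppp1cb was called in place of Ppp2cb. With no filter it was 26 of 68 (24.3% of all genes, against a lower median gene). It was 5 with limma at prior counts of 2 (9.59%) and 0.5 (9.6%), and 16 with a log2 threshold of 0 (28% of all genes). Without replicates 1, 2 and 3 it was 10 of 57, 7 of 46 and 7 of 47 (16.6, 10.5 and 11.2% of all tested genes). Members below numbered 3 without replicate 1, 1 without replicate 2 and 1 without replicate 3, against 4.78, 3.94 and 2.89% of all tested genes. Related regulators above numbered 29 of 60 with no filter, 11 of 49 undivided by length and 17 of 49 with a threshold of 0. In these settings 24.3, 17 and 28% of all tested genes were called above. Related regulators above were 3 of 49 with limma at both prior counts (9.59 and 9.6% of all tested genes) and 3 of 43 thinned (12.7%). On leaving out a replicate they numbered 3 to 15, against 10.5 to 16.6% of all tested genes. Those below numbered 0 of 49 undivided (3.69% of all tested genes) and 0 of 43 thinned (3.37%). On leaving out a replicate they numbered 0 to 1 (2.89 to 4.78%).

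The fitted pair differences (log2) are given as values, with no call drawn from them. Ppp2ca minus Ppp2cb, 0.02, turned to -1.01 and -1.0 with limma (prior counts 2 and 0.5), -0.040 thinned and -2.16 without replicate 1 (-2.16 to 0.52 over the fits that leave out 1 replicate), and was 2.37 undivided by length. Ppp3cb minus Ppp3cc, 2.13, was 3.69 undivided and -1.03 to 2.69 on leaving out a replicate, negative without replicate 1. Ppp2r1a minus Ppp2r1b was 1.47 thinned, 0.58 undivided, 0.95 and 0.94 with limma and 1.0 to 2.0 on leaving out a replicate. With limma Ppp1cc minus Ppp1ca was 3.47 and 4.17, Ppp3ca minus Ppp3cc 6.46 and 6.63, Ppp1r9a minus Ppp1r9b 0.66 at both prior counts, and Ppp1cb minus Ppp1ca 6.25 at the prior count of 0.5. Ppp1r9a minus Ppp1r9b was 1.07 with no filter, 2.58 undivided by length and 0.39 to 1.53 on leaving out a replicate. On leaving out a replicate Ppp1cc minus Ppp1ca was 3.18 to 3.60. The causes were not tested. No paired analysis was possible because all libraries belong to 1 group. Depth limits genes near 0 in replicate 1, where 1 count is worth most, and the filter drops genes missing there.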
